A study of Mus musculus with 12 samples.

Results

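The genes described here are the 4 that encode the subunits of ATP-sensitive potassium (KATP) channels: Kcnj8 and Abcc9, Kcnj11 and Abcc8. They were chosen by gene symbol, because this channel is the target of minoxidil, and each matched 1 row among the 50600 annotated genes of the count files. All 4 passed the filter on low counts, as did 24660 genes in all. RNA-seq had been run on 12 aortas of C57BL/6J mice, taken from the origin of the left subclavian artery down to the diaphragm. Every mouse, controls included, carried 1 disrupted copy of the elastin gene (Eln+/-), a model of a stiff artery wall. The off-drug group (n = 4) drank minoxidil for 2 weeks, starting at 2.5 months of age, and then plain water for 1 week. The on-drug group (n = 4) drank minoxidil for 2 weeks, also starting at 2.5 months, and was taken at the end of treatment. The control group (n = 4) drank plain water, and all 12 mice are labelled as 3 months old. The labels give no dose. No wild-type aorta was compared, so the values describe Eln+/- aorta only.

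KATP channels are built from a pore, made of Kir6.1 (Kcnj8) or Kir6.2 (Kcnj11), and a regulatory sulfonylurea receptor, SUR2 (Abcc9) or SUR1 (Abcc8). The channel closes when ATP is plentiful and opens with ADP or after phosphorylation by protein kinase A, and in arterial smooth muscle its opening hyperpolarises the cell, closes voltage-gated calcium channels and relaxes the wall. The pair of Kir6.1 with the splice form SUR2B is the vascular type, Kir6.2 with SUR2A that of heart and skeletal muscle, and Kir6.2 with SUR1 that of pancreatic beta cells and many neurons. Minoxidil is a prodrug: a sulfotransferase converts it to minoxidil sulfate, which opens channels that contain SUR2.

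The 4 genes lie as neighbouring pairs, each of a pore gene and a receptor gene on the same strand, the minus strand. On mouse chromosome 6 (GRCm38) Kcnj8 spans bases 142564837 to 142571614 in 3 exon blocks, and Abcc9 spans bases 142587862 to 142702315 in 41 exon blocks. They are 16247 bases apart with 0 annotated genes between them. On chromosome 7 Kcnj11 spans bases 46093953 to 46100764 in 4 exon blocks, and Abcc8 spans bases 46104523 to 46180033 in 38 exon blocks, 3758 bases apart, again with 0 genes between them. Counts were made per gene, so SUR2A and SUR2B could not be told apart, and strand was not used in counting. Abcc9 shares 158 exonic bases with 5330439B14Rik, a gene model on the opposite strand inside its span, and reads there were counted for both. The other 3 genes share 0 exonic bases with another gene.

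The sequences just upstream of Kcnj8 and Abcc9 are shown because these neighbours encode the vascular channel and the results turn on them. They come from RefSeq (GRCm38.p6), are read 5′ to 3′ on the minus strand and end at the annotated start, chr6:142571615-142571864 for Kcnj8 and chr6:142702316-142702524 for Abcc9. Of the 4 genes, 2 were matched in the promoter table. For Abcc9, 41 bases of the window were left out because the gene annotation counts them as transcribed. Capitals mark the matches to the motifs searched.
Kcnj8: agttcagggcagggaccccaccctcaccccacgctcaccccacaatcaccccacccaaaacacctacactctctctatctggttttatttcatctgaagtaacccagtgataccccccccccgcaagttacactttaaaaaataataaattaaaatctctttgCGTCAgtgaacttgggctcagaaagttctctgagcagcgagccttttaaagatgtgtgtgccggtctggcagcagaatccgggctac
Abcc9: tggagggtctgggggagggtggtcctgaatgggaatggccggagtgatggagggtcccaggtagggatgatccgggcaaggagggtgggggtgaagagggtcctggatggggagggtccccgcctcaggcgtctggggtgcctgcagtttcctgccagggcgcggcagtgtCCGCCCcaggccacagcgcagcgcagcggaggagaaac

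The Kcnj8 stretch had a GC content of 49.2% and the Abcc9 stretch one of 68.4%, against a median of 52.4% over 32851 promoters. The motifs searched on both strands were CACGTG (the E-box bound by clock factors), TGACG (a core of the cAMP response element), TGANTCA (AP-1), GTAAACA (forkhead), GGGCGG (the GC box) and the CArG box of serum response factor. The Kcnj8 stretch held 1 match, to TGACG on the reverse strand, 83 bases before the start, a motif present in 17.8% of all promoters over 250 bases. The Abcc9 stretch held 1 match, to GGGCGG on the reverse strand, 33 bases before its end, a motif present in 26.5% of all promoters over 209 bases. The other motifs had 0 matches in either stretch. These are matches of letters only.

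The libraries held between 41524501 and 109423243 counts, and levels are given as CPM, the counts of a gene scaled to a common library total, with edgeR's TMM factors, which adjust for library composition. Mice of the same group differed beyond counting error, and nothing in the labels pairs a mouse of one group with a mouse of another. Changes are log2 fold changes with their standard error (SE) from edgeR's quasi-likelihood test on all 12 libraries, and adjusted p-values are Benjamini-Hochberg values over the 24660 genes tested, with a call below 0.05. The 3 comparisons share libraries and are not independent of each other. The hour of collection is not in the labels, and clock genes moved with the groups: Arntl, which encodes the core clock activator BMAL1, lay at 0.791 to 1.43 CPM off drug, 5.20 to 13.1 CPM on drug and 13.9 to 20.8 CPM in controls. The part of the clock in the results that follow was not tested.

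The subunit genes differed widely in level, and the vascular pair stood far above the other pair. Per kilobase of exon, the scale on which genes can be compared, Abcc9 was at 66.7 ± 2.52 CPM per kb off drug, 58.3 ± 2.57 on drug and 56.5 ± 4.20 in controls (mean ± SD, n = 4 each). Kcnj8 followed with 27.0 ± 2.88 CPM per kb off drug, 17.6 ± 1.10 on drug and 21.6 ± 2.39 in controls. Kcnj11 was at 0.643 ± 0.142 CPM per kb off drug, 0.419 ± 0.0451 on drug and 0.420 ± 0.0311 in controls. Abcc8 was lowest, at 0.0587 ± 0.0166 CPM per kb off drug, 0.0544 ± 0.0225 on drug and 0.0460 ± 0.00932 in controls. The order Abcc9, Kcnj8, Kcnj11, Abcc8 was the same in all 12 libraries, and no neighbours in that order overlapped in any group. Within the tested genes Abcc9 was more abundant, by mean log2 CPM, than 99.2% of the others and Kcnj8 than 88.4%, while Kcnj11 stood above 38.3% and Abcc8 above 20.9%.

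**Figure D1:**
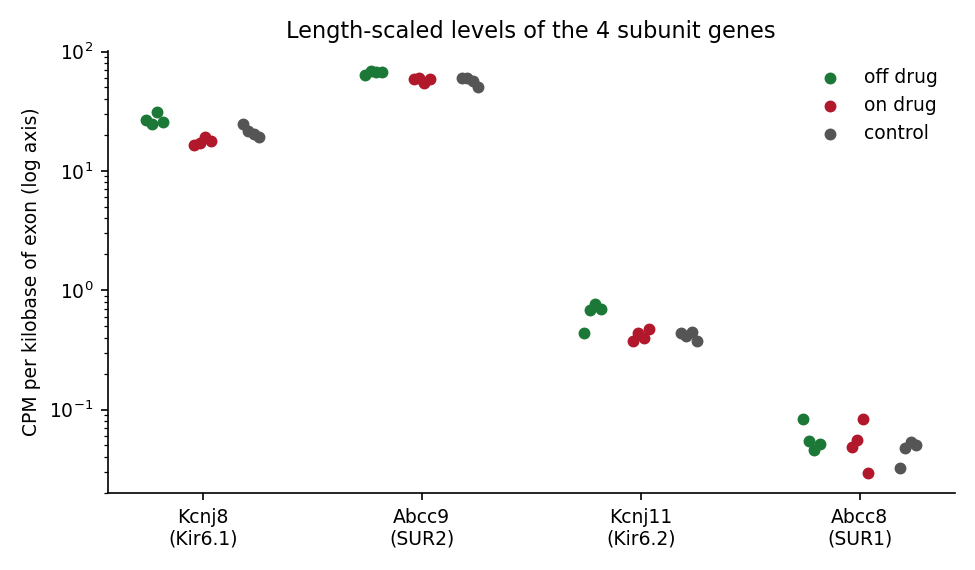
Level of the 4 KATP subunit genes in CPM per kilobase of exon (log axis), with 1 point per aorta and groups in the order off drug, on drug and control. Abcc9 and Kcnj8 lie far above Kcnj11 and Abcc8 in each of the 12 libraries.

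Kcnj8, the Kir6.1 pore of the vascular channel, was the subunit gene with the clearest change: it was lower during treatment than in controls, and 1 week after withdrawal it was above both. Its levels off drug were 67.5, 62.6, 79.4 and 65.7 CPM. On drug they were 41.9, 43.7, 48.5 and 45.0 CPM, and in controls 63.3, 55.3, 52.3 and 49.05 CPM. The 4 off-drug libraries all lay above the 4 on-drug libraries, the 4 on-drug libraries lay just below the 4 controls (48.5 against 49.05 CPM at the closest), and off-drug and control libraries overlapped at a single pair (62.6 and 63.3 CPM).

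Off drug against on drug, Kcnj8 rose by 0.62 ± 0.08 on the log2 scale (SE; 1.54-fold, 95% interval 1.36 to 1.73; adjusted p = 5.87e-05), which ranked it 252 of all genes by p. Off drug against control it rose by 0.32 ± 0.08 (1.25-fold, 95% interval 1.11 to 1.41; adjusted p = 0.0149). That call was lost without control replicate 4 (adjusted p = 0.0511) or off-drug replicate 3 (0.0637). On drug against control Kcnj8 fell by 0.30 ± 0.08, to 0.814 of the control level (95% interval 0.722 to 0.919; adjusted p = 0.0369). This last call was near the threshold and held in 12 of the 21 other settings tried: it was lost with limma-voom (0.0685), a non-robust fit (0.0506) or library sizes alone (0.116), without control replicate 1 (0.0783), 2 (0.061) or 3 (0.0537), and without on-drug replicate 1 (0.061), 2 (0.0788) or 4 (0.0894). In a whole vessel, fewer cells of a type that carries the transcript and less of it per cell cannot be told apart.

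Kcnj8 and Abcc9 are also known as markers of pericytes and other mural cells, so the levels of 10 other mural markers are set beside them. Their summed level was 2568 to 3156 CPM off drug, 3053 to 3573 CPM on drug and 2368 to 2761 CPM in controls, so that on drug, where Kcnj8 was lower, every library lay above every control. Most of this sum was Mcam, Rgs5 and Cspg4, at means of 1328, 1078 and 685 CPM on drug and 1037, 829 and 479 CPM in controls. The lowest markers, Cox4i2, Vtn and Higd1b, were at 2.63, 0.31 and 0.14 CPM on drug and 2.885, 0.51 and 0.13 CPM in controls. None of these low markers was called in any comparison. On drug against control 4 of the 10 were called higher and 0 lower, off drug against control 3 higher and 0 lower, and off drug against on drug 0 higher and 3 lower. Of all tested genes, 4.13% were called higher and 2.94% lower on drug against control. Off drug the shares were 6.27% and 5.77% against control, and 5.44% and 6.92% against on drug. Cspg4 (the proteoglycan NG2) was at 685 ± 102 CPM on drug and 479 ± 47.7 CPM in controls (log2 fold change 0.52 ± 0.10, adjusted p = 0.00486), and Notch3 at 43.6 ± 3.25 CPM on drug and 33.0 ± 4.48 CPM in controls (0.40 ± 0.08, adjusted p = 0.00781). Off drug against control these markers were not called (adjusted p = 0.415 for Cspg4 and 0.779 for Notch3). The 3 called higher in that comparison, as Kcnj8 and Abcc9 were, were Anpep (0.35 ± 0.09, adjusted p = 0.0164), Pdgfrb (0.40 ± 0.10, 0.0226) and Rgs5 (0.40 ± 0.12, 0.0355). Their calls were kept in 18, 16 and 14 of the 21 other settings. The summed level of 10 smooth muscle markers was 19020 to 21600 CPM off drug, 19610 to 22390 CPM on drug and 17190 to 19720 CPM in controls, and that of 6 endothelial markers was 571 to 737.5 CPM off drug, 780.1 to 913 CPM on drug and 611 to 692 CPM in controls. The part of these shifts in the Kcnj8 and Abcc9 values was not tested.

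**Figure D2:**
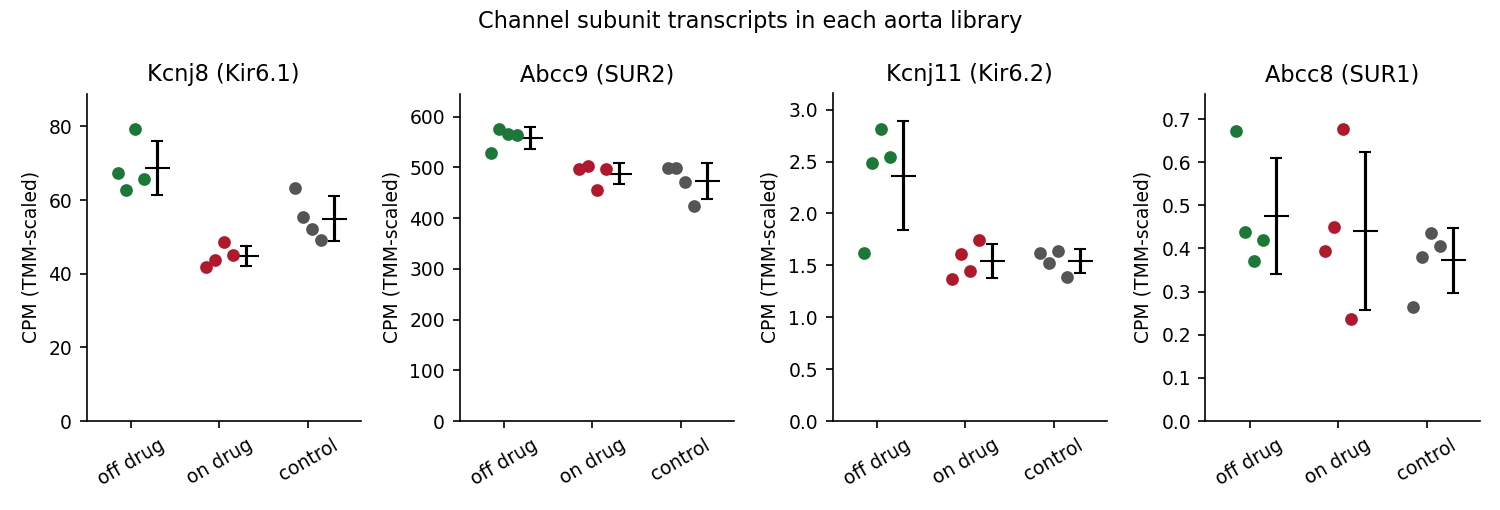
CPM of Kcnj8, Abcc9, Kcnj11 and Abcc8, 1 panel per gene with its own linear axis, 1 point per aorta and groups in the order off drug, on drug and control, with bars at the group means and SD. Kcnj8 separates off drug from on drug (62.6 CPM at the lowest against 48.5 CPM at the highest), while Abcc8 overlaps in all comparisons.

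Abcc9, the SUR2 receptor on which minoxidil sulfate acts, was the most abundant subunit transcript. It was higher off drug than in either other group and was not called different on drug. Its levels off drug were 528, 577, 565.5 and 563 CPM. On drug they were 496, 502, 456 and 497 CPM, and in controls 498, 498, 472 and 424 CPM. All off-drug libraries lay above all libraries of the other groups, whereas on-drug and control libraries overlapped.

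Off drug against control, Abcc9 rose by 0.24 ± 0.06 on the log2 scale (1.18-fold, 95% interval 1.08 to 1.29; adjusted p = 0.0171), a call lost without control replicate 4 (0.0642) or off-drug replicate 2 (0.0505) or 3 (0.0509). Off drug against on drug it rose by 0.19 ± 0.06 (1.14-fold, adjusted p = 0.0487), at the edge of the threshold. That call held in 11 of the 21 other settings and was lost, among others, with a non-robust fit (0.0598) or library sizes alone (0.0712). It was also lost without on-drug replicate 1 (0.0581), 2 (0.0723), 3 (0.14) or 4 (0.0794) and without off-drug replicate 2 (0.119), 3 (0.1) or 4 (0.0817). On drug against control the difference was 0.05 ± 0.06, with a 95% interval of -0.09 to 0.18 (adjusted p = 0.741). Abcc9 varied little between mice of a group, with an estimated biological coefficient of variation of 0.085, and Kcnj8 was close to it at 0.094, against a median of 0.153 over all genes.

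The balance of receptor to pore transcript within each library differed accordingly. Per kilobase, the ratio of Abcc9 to Kcnj8 was 2.38, 2.80, 2.17 and 2.61 off drug. On drug it was 3.61, 3.49, 2.86 and 3.36, and in controls 2.40, 2.74, 2.75 and 2.63. Every on-drug library was above every other library, the closest being 2.86 on drug against 2.80 off drug, while off-drug and control libraries overlapped. The means were 2.49 ± 0.275 off drug, 3.33 ± 0.329 on drug and 2.63 ± 0.164 in controls (SD, n = 4 each), a description without a test. Kcnj11 transcripts amounted to 2.39 ± 0.501% of those of Kcnj8 off drug, 2.39 ± 0.275% on drug and 1.96 ± 0.168% in controls. Abcc8 transcripts lay between 0.0494% and 0.154% of those of Abcc9 over all 12 libraries.

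**Figure D3:**
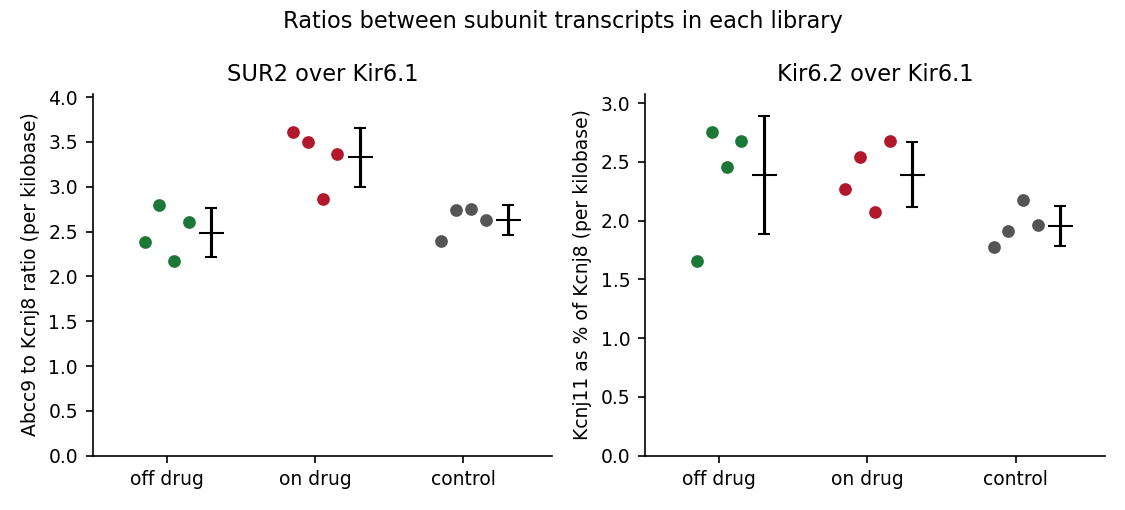
Ratios of subunit transcripts within each library, from counts per kilobase of exon: Abcc9 to Kcnj8, and Kcnj11 as a percentage of Kcnj8, with 1 point per aorta, bars at the mean ± SD of each group, and groups in the order off drug, on drug and control. The on-drug libraries have Abcc9 to Kcnj8 ratios of 2.86 to 3.61, above all libraries of the other groups.

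Kcnj11, the Kir6.2 pore of heart, skeletal muscle and beta cell channels, was a rare transcript in the aorta and was higher after withdrawal. It was at 1.61, 2.49, 2.82 and 2.54 CPM off drug, at 1.37, 1.61, 1.45 and 1.74 CPM on drug and at 1.62, 1.53, 1.64 and 1.39 CPM in controls. Behind these stand 89 to 267 counts per off-drug library, 62 to 149 per on-drug library and 94 to 104 per control library. The off-drug replicates 2, 3 and 4 lay above all libraries of the other groups, and off-drug replicate 1 lay among them. Off drug against on drug the gene rose by 0.62 ± 0.18 on the log2 scale (1.54-fold, adjusted p = 0.0301), and off drug against control by 0.62 ± 0.18 (1.54-fold, 95% interval 1.18 to 2.01; adjusted p = 0.0319). On drug against control the difference was 0.00 ± 0.19 with a 95% interval of -0.39 to 0.39 (adjusted p = 0.998).

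Both calls of Kcnj11 depended on single libraries. The call against on drug was lost without on-drug replicate 1 (0.0761), 2 (0.0571) or 3 (0.075) or off-drug replicate 2 (0.0722), 3 (0.103) or 4 (0.0753). The call against control was lost without control replicate 2 (0.0687), 3 (0.058) or 4 (0.0854) or off-drug replicate 2 (0.0723), 3 (0.111) or 4 (0.0819). The summed level of 11 skeletal muscle markers, whose cells use Kir6.2, was 11.3, 22.3, 9.04 and 7.88 CPM in off-drug replicates 1 to 4, 8.40 to 11.2 CPM on drug and 5.94 to 7.66 CPM in controls. All off-drug and all on-drug libraries lay above all controls in this sum (7.88 CPM at the lowest off drug against 7.66 CPM at the highest in controls). For 8 cardiac markers the sum was 19.3 to 48.9 CPM off drug, 16.3 to 38.7 CPM on drug and 14.8 to 37.2 CPM in controls. The part of muscle RNA in the Kcnj11 values was not tested.

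Abcc8, the SUR1 receptor of beta cells and neurons, was close to the limit of detection. It was at 0.671, 0.437, 0.371 and 0.419 CPM off drug, at 0.395, 0.45, 0.678 and 0.237 CPM on drug and at 0.264, 0.381, 0.436 and 0.407 CPM in controls, from 17 to 44 counts per library. The groups overlapped throughout. The log2 differences were 0.13 ± 0.35 off drug against on drug (95% interval -0.60 to 0.85; adjusted p = 0.871), 0.34 ± 0.35 off drug against control (-0.39 to 1.07; adjusted p = 0.599) and 0.21 ± 0.35 on drug against control (-0.53 to 0.95; adjusted p = 0.793). True differences anywhere inside these intervals remain compatible with the data. Of 10 neuronal and neuroendocrine markers, Snap25, Chga, Th and Dbh were at 0 in some libraries. The summed level of all 10 was 75.3 to 81.9 CPM off drug, 76.3 to 82.6 CPM on drug and 56.2 to 59.8 CPM in controls. Nearly all of that sum was Uchl1, a ubiquitin hydrolase of neurons, at means of 74.3 CPM off drug, 74.2 CPM on drug and 54.0 CPM in controls, and it was the only marker of this list called against control. Their part in the Abcc8 values was not tested.

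Counted over the subunits, off drug against on drug 3 of the 4 were called higher and 0 lower, where 5.44% of all tested genes were called higher and 6.92% lower. Off drug against control 3 of 4 were called higher and 0 lower, where 6.27% of all tested genes were called higher and 5.77% lower. On drug against control 1 of 4 was called lower and 0 higher, where 2.94% of all tested genes were called lower and 4.13% higher. Both comparisons of the off-drug group use the same 4 off-drug libraries.

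**Figure D4:**
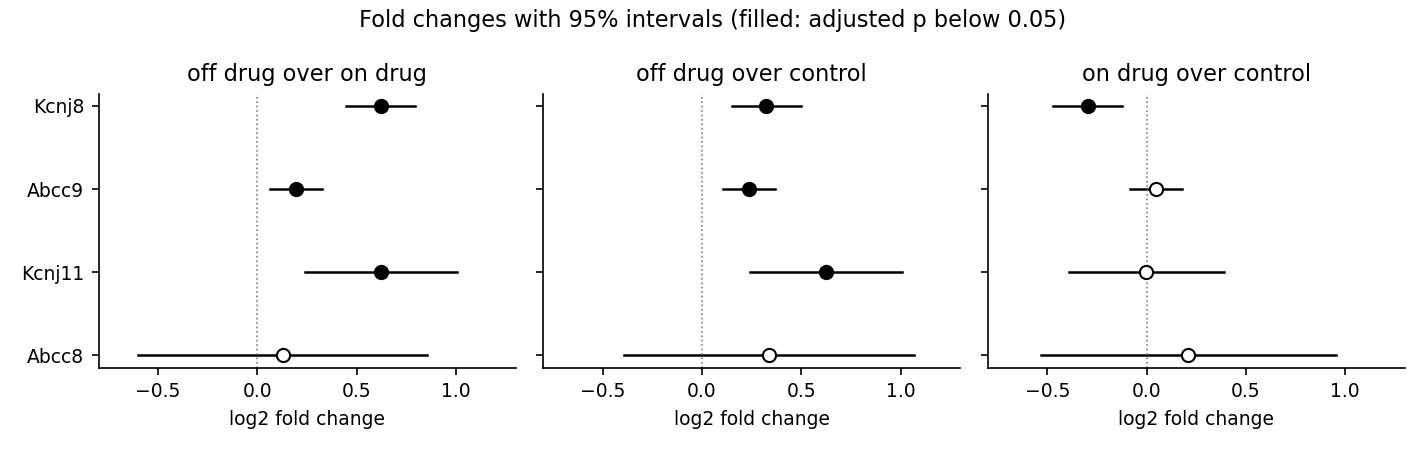
Log2 fold changes of the 4 subunit genes, with 95% confidence intervals from edgeR's quasi-likelihood fit and filled points for an adjusted p below 0.05, in the comparisons off drug over on drug, off drug over control and on drug over control. Kcnj8 lies at 0.62, 0.32 and -0.30, and the intervals of Abcc8 span 0 in all 3.

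The genes around the Kcnj8 and Abcc9 pair were then examined. Ldhb, which encodes the B subunit of lactate dehydrogenase, lies 56879 bases from Kcnj8 on its other side and varied like it. Farther on that side, Gys2, 91727 bases from Kcnj8, was not called. Its log2 differences were -0.41 off drug against on drug (adjusted p = 0.827), -0.25 off drug against control (0.894) and 0.16 on drug against control (0.944). Its counts were low and variable, 11 to 200 per off-drug library. Ldhb was at 48.8, 44.6, 53.6 and 51.5 CPM off drug, at 33.5, 33.9, 36.2 and 36.8 CPM on drug and at 47.0, 41.1, 38.6 and 41.8 CPM in controls. Every on-drug library lay below every library of the other groups. Off drug against on drug Ldhb rose by 0.50 ± 0.07 on the log2 scale (adjusted p = 0.000107), a call kept in all 21 other settings tried, as that of Kcnj8 was.

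The other calls of Ldhb were less stable. Its rise off drug against control (0.24 ± 0.07, adjusted p = 0.036) was lost without control replicate 2 (0.0925), 3 (0.12) or 4 (0.0703) or off-drug replicate 1 (0.0713), 3 (0.122) or 4 (0.0912). Its fall on drug against control (-0.26 ± 0.07, adjusted p = 0.0311) was lost with library sizes alone (-0.23, adjusted p = 0.113) or limma-voom (0.0533), and without control replicate 1 (0.0641) or on-drug replicate 2 (0.0753), 3 (0.0567) or 4 (0.0531).

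On the far side of Abcc9, Cmas, the enzyme that activates sialic acid, lies 54370 bases away and was not called: its log2 differences were -0.11 off drug against on drug (adjusted p = 0.351), -0.18 off drug against control (0.0916) and -0.07 on drug against control (0.584). The antisense model 5330439B14Rik had between 3.81% and 4.54% of the count of Abcc9 in each library. It rose by 0.33 ± 0.08 off drug against control (adjusted p = 0.0111), kept in all 21 other settings. Its rise off drug against on drug (0.29 ± 0.08, adjusted p = 0.0243) was lost without on-drug replicate 2 (0.0739) or 3 (0.0506) or off-drug replicate 2 (0.0773) or 3 (0.0581). Since strand was not used in counting, its reads and those of Abcc9 cannot be told apart where they overlap. An alternative chosen after seeing the data took its whole count off that of Abcc9, not only the reads in the shared bases. Abcc9 then differed by 0.23 off drug against control (adjusted p = 0.0189) and by 0.19 off drug against on drug (0.0534). Which of the reads taken off had been counted for Abcc9 is not known. Beside the chromosome 7 pair, Nomo1 lies 9740 bases from Kcnj11 and was not called in any comparison, with log2 differences of -0.17 off drug against on drug (adjusted p = 0.118), 0.01 off drug against control (0.952) and 0.18 on drug against control (0.121).

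**Figure D5:**
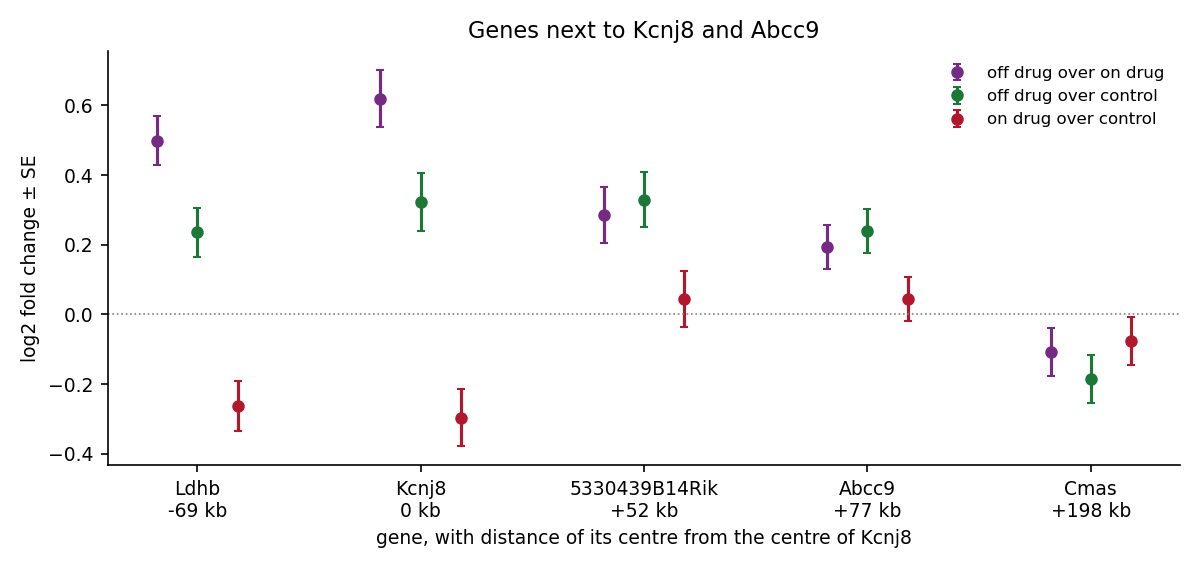
Log2 fold change with SE (vertical axis) of Kcnj8, Abcc9 and the neighbouring genes Ldhb, 5330439B14Rik and Cmas, with the genes in chromosome order, evenly spaced and labelled with the distance of each centre from that of Kcnj8 in kilobases (horizontal axis), in the comparisons off drug over on drug, off drug over control and on drug over control. Ldhb, at -69.1 kb, lies near Kcnj8 in each comparison, and Cmas, at 198.0 kb, does not differ past the threshold.

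The genes whose log2 CPM followed each subunit gene most closely over the 12 libraries were listed among 11914 genes of moderate or higher level. The libraries share the group differences, so the correlations describe these aortas only. For Kcnj8 they were Nqo1, a quinone reductase (Pearson r = 0.97), Ldhb (0.96), Pcsk5, a proprotein convertase (0.96), Aldh9a1, an aldehyde dehydrogenase (0.95), and Rnf144b, a ubiquitin ligase (0.95). Nqo1 averaged 32.0 CPM off drug, 22.3 CPM on drug and 25.5 CPM in controls. Pcsk5 averaged 120.5 CPM off drug, 88.4 CPM on drug and 104.9 CPM in controls, the same order as Kcnj8.

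For Abcc9 the genes most alike were Gmeb1 (0.95), Arhgef6 (0.94), Cmtr1 (0.94), Slc35g1 (0.94) and Ccdc167 (0.93). For Kcnj11 they were Whrn (0.92), Tmem57 (0.90), Ythdf2 (0.89), Apcdd1 (0.89) and Taf9b (0.89), and for Abcc8, at its low counts, Zfp27 (0.88), Smyd4 (0.85), Stbd1 (0.84), Mettl18 (0.83) and Aimp2 (0.82).

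With the group means subtracted, which leaves the variation between mice of a group, the lists were nearly all different. For Kcnj8 they were Ifngr1 (0.93), Emc9 (0.93), Pth1r (0.93), Pip4k2c (0.91) and Psmd3 (0.91), with 0 of 5 shared, and Ldhb ranked 145 (r = 0.78). For Abcc9 they were Iqcb1 (0.94), Metap1d (0.94), Klf11 (0.93), Acadsb (0.91) and Slc35g1 (0.90), with 1 of 5 shared. For Kcnj11 the genes were Phf10 (0.92), Polr3c (0.91), Zfp266 (0.90), Map3k8 (0.89) and Fbxw7 (0.89), with 0 shared, and for Abcc8 they were Tsen54 (0.95), Ralb (0.90), Smyd4 (0.89), Plpp1 (0.87) and Fbxo8 (0.87), with 1 shared.

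The correlations among the subunit genes follow. The genes listed above were picked as the highest of 11914, so lower values are no finding by themselves. Over the 12 libraries Kcnj8 and Abcc9 had r = 0.65, Kcnj8 and Kcnj11 0.73, and Abcc9 and Kcnj11 0.84. With the group means subtracted these values were 0.27 for Kcnj8 and Abcc9, 0.31 for Kcnj8 and Kcnj11 and 0.55 for Abcc9 and Kcnj11. Abcc8, at its low counts, had r = 0.07 with Kcnj8, -0.06 with Abcc9 and -0.13 with Kcnj11 over the 12 libraries. With the group means subtracted these values were -0.21, -0.60 and -0.64. Over the 12 libraries the members of the vascular pair were not among each other's closest genes (rank 1279 for Abcc9 among the genes most like Kcnj8, and 1243 for Kcnj8 among those most like Abcc9). Abcc9 and Kcnj11 ranked closer: Abcc9 was at rank 37 among the genes most like Kcnj11, and Kcnj11 at rank 147 among those most like Abcc9.

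Genes that act on the channel were described in lists compiled from textbook knowledge with earlier results of these data known. Values are given for genes whose call was kept in all 21 other settings, a choice made after seeing the values, and for some others named beside them. Minoxidil becomes active by sulfation. Sult1a1, the sulfotransferase that does this, was at 55.7 ± 3.25 CPM off drug, 58.4 ± 8.77 CPM on drug and 52.0 ± 5.02 CPM in controls and was not called (adjusted p = 0.709 off drug against on drug, 0.557 off drug against control and 0.307 on drug against control). Of 4 genes for sulfate uptake and transfer, 2 were called higher on drug than in controls and 1 off drug, and 1 was lower off drug than on drug. Their median log2 fold change was -0.07 off drug against on drug, 0.10 off drug against control and 0.30 on drug against control, where the medians over all genes were -0.00, -0.01 and 0.01. The shares called over all tested genes were 5.44% higher and 6.92% lower off drug against on drug. Against control these shares were 6.27% and 5.77% off drug, and 4.13% and 2.94% on drug. The sulfate transporter Slc26a2 rose to 14.9 ± 2.21 CPM on drug, against 11.1 ± 0.556 CPM in controls (log2 fold change 0.42 ± 0.09, adjusted p = 0.00982).

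Of 22 tested regulators among 23 listed of the channel (protein kinase A and C subunits, calcineurin, the cAMP sensors Epac, caveolin, ankyrins and phosphotransfer enzymes), 3 were called higher and 5 lower off drug than on drug, with a median log2 fold change of 0.04 against -0.00 over all genes. Off drug against control 3 were higher and 2 lower (median 0.04, against -0.01 over all genes), and on drug against control 4 were higher and 0 lower (0.03, against 0.01). The shares called over all genes are those given for the sulfation genes. Prkaca, a catalytic subunit of protein kinase A, which opens the vascular channel, was higher after withdrawal, as Kcnj8 was. It was at 52.7 ± 1.21 CPM off drug, 44.2 ± 1.69 CPM on drug and 43.1 ± 4.42 CPM in controls (0.25 ± 0.07 against on drug, adjusted p = 0.0174, and 0.29 ± 0.07 against control, adjusted p = 0.00819). Prkacb, another catalytic subunit, was more abundant, at 122.4 CPM off drug, 112.8 CPM on drug and 115.8 CPM in controls. It was not called off drug against on drug (0.12 ± 0.06, adjusted p = 0.23) or against control (0.08 ± 0.06, adjusted p = 0.443). Prkar1b, a regulatory subunit of the same kinase, was low, at 1.17 CPM off drug, 0.638 CPM on drug and 1.01 CPM in controls. It was higher off drug than on drug (0.86 ± 0.22, adjusted p = 0.0124) and was not called off drug against control (adjusted p = 0.588). Prkcd, a protein kinase C isoform, was lower off drug than on drug (log2 fold change -0.44 ± 0.06, adjusted p = 0.000132). It was at 44.3 CPM off drug, 59.9 CPM on drug and 51.1 CPM in controls. Against control it was called higher on drug (0.23 ± 0.06, adjusted p = 0.0342) and lower off drug (-0.21 ± 0.06, adjusted p = 0.0406). These calls were kept in 15 and 10 of the 21 other settings. Protein kinase C is known to inhibit the vascular channel, but its isoforms differed here. Prkce was not called in any comparison (adjusted p = 0.486 off drug against on drug, 0.893 off drug against control and 0.64 on drug against control). Prkca was lower off drug than on drug (-0.36 ± 0.09, adjusted p = 0.0177) and was not called off drug against control (0.794). Against control it was called higher on drug (0.41 ± 0.10, adjusted p = 0.0145).

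Cav1, the main protein of caveolae, where vascular KATP channels are found, was also lower off drug than on drug (-0.25 ± 0.06, adjusted p = 0.0106). Off drug it was near the control level (651 and 658 CPM, adjusted p = 0.918). On drug, at 772 CPM, it was called higher than in controls (0.23 ± 0.06, adjusted p = 0.0256). That call was kept in 15 of the 21 other settings. Ank2, an ankyrin that anchors Kir6.2 in heart muscle, was higher than in controls both off drug (0.25 ± 0.05, adjusted p = 0.00534) and on drug (0.29 ± 0.05, adjusted p = 0.00448). Ak1, the adenylate kinase that relays ADP to the channel in heart and skeletal muscle, was higher off drug than on drug (0.32 ± 0.08, adjusted p = 0.0153) and than in controls (0.45 ± 0.08, adjusted p = 0.00153). Of 9 receptors and partners that raise cAMP, which acts on the channel through protein kinase A, 0 were called off drug in either comparison and 1 was called on drug: Vipr1, a receptor for vasoactive intestinal peptide, rose to 11.5 ± 1.90 CPM, against 7.66 ± 1.07 CPM in controls (0.58 ± 0.13, adjusted p = 0.0114). At an unadjusted p under 0.05, 0 of the 9 were higher and 1 lower off drug against on drug, and 2 higher and 0 lower off drug against control. By adjusted p, DESeq2 called 0 off drug against on drug and 1 off drug against control, and limma-voom called 0 in both. The list's median log2 fold change was -0.06 off drug against on drug, 0.07 off drug against control and 0.23 on drug against control. The medians over all genes were -0.001, -0.008 and 0.005, and the shares called are those given for the sulfation genes.

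Relatives of the subunits were compared last. Of 13 other inward rectifier genes 9 were tested. Kcnj15 (Kir4.2) moved opposite to Kcnj8 in the comparisons with the on-drug group: it was at 13.2 ± 1.34 CPM off drug, 22.9 ± 2.34 CPM on drug and 13.99 ± 0.870 CPM in controls. It rose by 0.72 ± 0.09 on drug against control (adjusted p = 0.000162) and fell by 0.80 off drug against on drug (SE 0.09, adjusted p = 1.09e-05). Off drug against control, where Kcnj8 was called higher, Kcnj15 was not called (-0.08 ± 0.09, adjusted p = 0.636). Kcnj12 (Kir2.2) was low and rose after withdrawal, to 1.09 ± 0.117 CPM off drug, against 0.389 ± 0.118 CPM on drug (1.505 ± 0.29, adjusted p = 0.00156) and 0.460 ± 0.128 CPM in controls (1.24 ± 0.28, adjusted p = 0.00697). Kcnj2 (Kir2.1), the strong inward rectifier of small arteries, was at 3.14 ± 0.625 CPM off drug, 4.77 ± 1.07 CPM on drug and 4.35 ± 1.37 CPM in controls and was not called. In these 9 genes 1 was called higher and 1 lower off drug against on drug, 1 higher and 0 lower off drug against control, and 1 higher and 0 lower on drug against control. Their median log2 fold changes in these comparisons were -0.43, 0.22 and 0.13, where the medians over all genes were -0.001, -0.008 and 0.005. In the same order, 5.44%, 6.27% and 4.13% of all tested genes were called higher, and 6.92%, 5.77% and 2.94% lower.

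Of 8 relatives of the sulfonylurea receptors, transporters of the ABCC family, 2 were called higher and 3 lower off drug against on drug, 2 higher and 1 lower off drug against control, and 0 on drug against control. In that last comparison 4 of the 8 were higher and 0 lower at an unadjusted p under 0.05, and by adjusted p DESeq2 called 2 higher and limma-voom 0. Their median log2 fold change was -0.13 off drug against on drug, -0.10 off drug against control and 0.16 on drug against control. The medians and the shares called over all genes are those given for the inward rectifiers. Abcc1, a transporter of glutathione conjugates, was at 179.9 ± 7.58 CPM off drug and 131.3 ± 13.8 CPM in controls (0.46 ± 0.07, adjusted p = 0.000324). Abcc5, an exporter of cyclic nucleotides, was lower off drug than on drug (-0.30 ± 0.06, adjusted p = 0.00403), as was Abcc3 (-0.76 ± 0.18, adjusted p = 0.00669).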

How the data were processed

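The authors deposited raw counts per gene as whole numbers, from featureCounts (1.4.6-p3), the M13 gene models of GENCODE and a STAR 2.5.3a index, per the file headers. The build GRCm38 is given by the submitters' processing notes. Reads that align repeatedly or lie over several genes counted for each, duplicates were ignored and strand was not used, per the same headers. The authors' deposited series table holds log2 values and was used for gene symbols only. For well-counted genes these values equalled log2(count / factor + 1), with a constant factor in each library, within a relative difference of 1e-06. That this factor is the DESeq2 size factor was not tested.

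The counts were tested with edgeR 4.0.16 (R 4.3.3): TMM scaling, filterByExpr (minimum count 10, minimum total 15), a robust quasi-likelihood fit of 3 groups of 4 libraries, and Benjamini-Hochberg adjustment over 24660 genes. DESeq2 1.42.0 and limma 3.58.1 (voom with quality weights) were alternatives, with another scaling, other filters (CPM of at least 1 in 4 libraries, or none), only the groups compared, no robust estimation, a replicate block and each library left out. Totals ran from 41524501 to 109423243 counts, and reads counted for several genes enter them more than once. The labels describe 4 mice per group and do not pair them across groups, and no pair of libraries looked like a repeat (lowest chi-square per degree of freedom 25.9). Sequence words of 50 bases shared with transcripts of other genes made up 0.61% of Abcc9 and 0 of the other subunit genes.

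The subunit genes, the lists and the tests were chosen with earlier results of these data known. Named beside the 4 subunit genes were called genes of the lists, up to 4 per list and comparison, and the 5 genes most correlated with each subunit gene among those whose log2 CPM averaged 1 or more, unnamed gene models and pseudogenes left out. Values were then limited to list genes whose call held in all 21 other settings. Kcnj2, Sult1a1, Prkacb, Prkca, Prkce, Nomo1, Cmas, Gys2 and the markers were named besides. In simulated counts for on drug against control, with 200 of the genes changed, the fit was checked for the recovery of known fold changes.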

Additional observations from a re-analysis of the deposited data

Results flagged for a closer look

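In 1 of the 12 sets of 4 libraries (4 subunit genes in 3 groups), a library stood apart from the others of its group. Abcc9 was at 456 CPM in on-drug replicate 3, while the other on-drug libraries lay between 496 and 502 CPM. The gap was 0.873 of the group's range, past Dixon's 95% critical value for 4 values. Chance alone gives about 1 such case in 20 sets. Without that library Abcc9 differed by less between off drug and on drug (log2 difference 0.17, adjusted p = 0.14). The library had the lowest total, 41524501 counts, and 19508 counts of Abcc9.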

How the results depend on the processing

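Of the calls of subunit genes, that of Kcnj8 off drug against on drug held in all 21 other settings (adjusted p between 3.85e-12 and 0.000343). The fall of Kcnj8 on drug held in 12 of 21 and was lost with library sizes alone (-0.26, adjusted p = 0.116), limma-voom (-0.28, 0.0685) and a non-robust fit (-0.30, 0.0506). The rise of Abcc9 off drug against on drug held in 11 of 21 and was lost with library sizes alone (0.22, adjusted p = 0.0712), a non-robust fit (0.19, 0.0598), the replicate block (0.19, 0.0713) and with the counts of 5330439B14Rik taken off (0.19, 0.0534), an alternative chosen after seeing the data. The other calls, of Kcnj8, Abcc9 and Kcnj11 off drug against control and of Kcnj11 off drug against on drug, were lost in no setting other than those that left out a library, and held in 19, 18, 15 and 15 of 21.

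With 1 library left out, log2 differences off drug against on drug lay between 0.55 and 0.66 (Kcnj8), 0.17 and 0.22 (Abcc9), 0.54 and 0.77 (Kcnj11) and -0.087 and 0.39 (Abcc8). Off drug against control they lay between 0.25 and 0.40 (Kcnj8), 0.19 and 0.26 (Abcc9), 0.53 and 0.76 (Kcnj11) and 0.13 and 0.43 (Abcc8). On drug against control they lay between -0.35 and -0.23 (Kcnj8), -0.009 and 0.07 (Abcc9), -0.067 and 0.05 (Kcnj11) and -0.059 and 0.42 (Abcc8). The uncalled difference of Kcnj11 on drug also changed sign with library sizes alone (0.033), the stricter filter (0.003) and limma-voom (0.017). Abcc8 had no value under the stricter filter.

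The number of genes lower on drug than in controls was 725, against 388 with library sizes alone, 1353 with DESeq2 and 463 with those groups alone, and the number lower off drug than in controls was 1422, against 844 with library sizes alone. With 1 library left out, genes higher and lower numbered 472 to 1330 and 323 to 960 on drug against control, 1003 to 1926 and 982 to 1627 off drug against control, and 965 to 1464 and 1273 to 1788 off drug against on drug. Same-numbered libraries did not deviate together (correlations -0.08 to 0.067), so the replicate numbers were taken to share only a number, and the block ended no other call of a subunit gene. The causes of these shifts were not tested. Counts of 17 to 44 limit Abcc8.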
